A study of Mus musculus with 13 samples.

Results

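Levels of 7 genes of zinc handling were followed in newly made kidney RNA from 2 mouse models of iron overload. The genes were taken by symbol from the deposited table of 35013 gene symbols, which holds all 7. They are the metallothioneins Mt1 and Mt2, the transcription factor Mtf1, the exporters Slc30a1 and Slc30a10, and the importers Slc39a10 and Slc39a5. Of these, 6 passed edgeR's filter on low counts, as did 16468 genes of the table. Slc30a10 did not pass, and its values are given without a test.

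The 13 libraries came from female mice, whose ages are not given in the sources used here. All mice carried Megalin3'Cre-Ert, a tamoxifen-induced Cre made from the megalin gene, and a floxed-stop Uprt allele. Spns1 KO mice (n = 4) were Spns1 flox/flox, WT mice (n = 5) were Spns1 flox/+ in the methods but Spns1 WT in the labels, and FeO mice (n = 4) had the WT genotype. FeO mice received 12 mg of elemental iron as intraperitoneal iron sucrose on each of 3 days and were euthanized 1 week later, although the series design calls this model dietary. RNA labelled with 4-thiouracil by the UPRT enzyme was captured and sequenced, so that the values report recent transcription in cells where the Cre had acted, as far as the capture was selective. The study describes its kidneys as coming from littermates and its tamoxifen as given to paired mice side by side, but the labels do not say which libraries shared a litter or a day, so the p-values measure the spread between these libraries.

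Zinc is held in cells by metallothioneins, small cysteine-rich proteins that also bind copper and cadmium. A rise in free zinc activates MTF-1, the zinc finger protein encoded by Mtf1, which binds metal response elements and switches on Mt1, Mt2 and Slc30a1, the plasma membrane zinc exporter. MTF-1 is also known to repress Slc39a10, a plasma membrane zinc importer, so these genes are commonly read as a zinc sensor. In the kidney the proximal tubule takes up filtered metallothionein with its bound metal by way of megalin.

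The stretches just before the annotated starts of Mt1, Mt2 and Slc30a1 are shown because these genes are the standard targets of MTF-1. The sequences are the 250 bases before the RefSeq start, on the strand of the gene, from the RefSeq table for GRCm38.p6. Capitals mark the core letters of the metal response element, TGCACNC or TGCGCNC, read on either strand. The windows are chr8:94178839-94179088 (+) for Mt1, chr8:94172368-94172617 (+) for Mt2 and chr1:191906531-191906780 (+) for Slc30a1.
Mt1: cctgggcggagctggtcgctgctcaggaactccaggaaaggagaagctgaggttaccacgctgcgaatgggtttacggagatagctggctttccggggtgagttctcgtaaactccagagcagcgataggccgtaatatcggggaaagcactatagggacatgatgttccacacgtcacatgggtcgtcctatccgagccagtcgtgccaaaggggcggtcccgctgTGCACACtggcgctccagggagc
Mt2: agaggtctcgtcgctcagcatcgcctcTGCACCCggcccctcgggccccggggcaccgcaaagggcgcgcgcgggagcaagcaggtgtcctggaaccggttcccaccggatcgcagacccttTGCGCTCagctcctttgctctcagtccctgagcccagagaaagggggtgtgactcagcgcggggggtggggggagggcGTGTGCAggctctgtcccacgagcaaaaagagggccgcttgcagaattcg
Slc30a1: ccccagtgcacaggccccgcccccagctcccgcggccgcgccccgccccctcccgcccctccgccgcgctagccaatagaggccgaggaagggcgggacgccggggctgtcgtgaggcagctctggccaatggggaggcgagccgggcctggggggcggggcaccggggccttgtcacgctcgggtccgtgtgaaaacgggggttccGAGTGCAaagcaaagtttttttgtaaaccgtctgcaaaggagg
The Mt1 window holds 1 core, 23 to 17 bases before the start. Mt2 has 3, of which the nearest lies 50 to 44 bases before the start on the opposite strand. Slc30a1 has 1 on the opposite strand, 43 to 37 bases before the start.

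Of the 32851 RefSeq windows of this length, 21.4% hold at least 1 such core, 5.17% at least 2 and 1.26% at least 3. Slc30a10 has 3 matches, of which 2 overlap, and Slc39a5 has 1, in 1 of its 2 windows. The windows of Mtf1 and Slc39a10 hold none. A match is a run of letters, and binding was not measured. Position relative to the start matters here, since GENCODE vM21 gives Mt1 2 further starts, 129 and 159 bases downstream of the first. Those first 129 bases of the longer Mt1 transcript hold 4 more cores, and the 196 bases between both GENCODE starts of Mt2 hold 3 more. The first GENCODE start of Mt2, 94172664, lies beyond its window, which ends at 94172617, and the bases between were not searched.

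Each library held between 23068023 and 71296474 counts. Summed levels of 8 proximal tubule markers were 3270.2 to 4655.5 CPM (counts scaled to library size with TMM factors) in WT, 7328.7 to 8302.8 in Spns1 KO and 1973.0 to 5494.1 in FeO. No marker of any list was at 0 in any library. Markers of other cells were thus present too, with the 5 collecting duct markers at 217 to 377 CPM in WT, 218 to 352 in Spns1 KO and 401 to 1023.1 in FeO, and the 6 macrophage and leukocyte markers at 19.6 to 32.4, 32 to 68.2 and 41.8 to 132. In WT, Spns1 KO and FeO in turn, the summed ranges were 1115.7 to 2442.0, 2002.3 to 2711.7 and 1291.1 to 3386.4 CPM for thick ascending limb (3 markers). They were 409 to 1773.6, 1064.8 to 2133.1 and 523 to 1877.6 for distal tubule (3), and 134 to 242, 194 to 247 and 245 to 582 for podocytes (4). They were 131 to 150, 181 to 227 and 136 to 239 for endothelium (4), 60.9 to 97.9, 118 to 163 and 52.7 to 126 for fibroblasts (5), and 9.4 to 36.5, 51.8 to 175 and 26.3 to 238 for erythroid cells (5). In bulk RNA, fewer cells of a type and less RNA per cell cannot be told apart. The count of Spns1, the deleted gene, did not separate the libraries labelled Spns1 KO (36.6 to 59 CPM) from WT (39.2 to 62.9 CPM), with a log2 fold change of -0.31 (SE 0.18, edgeR adjusted p = 0.225). That count covers every exon, whereas the floxed allele loses exon 3. By the methods, WT mice also carried a floxed allele and the same Cre. What part these points had in the overlap was not tested. The paper reports that Spns1 RNA was deleted in the proximal tubule of its knockout mice.

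The question for each gene was whether its transcription in Spns1 KO or FeO differed from that in WT. A gene was called when its adjusted p in edgeR's quasi-likelihood test (Benjamini-Hochberg over all 16468 genes) fell under 0.05 and its change, up or down, exceeded 0.5 on the log2 scale. In Spns1 KO, Mtf1 fell and Slc39a5 rose, so that 2 of the 6 tested members were called, against 21.6% of all tested genes (14.0% higher and 7.55% lower). In FeO, Mtf1 and Slc30a1 fell, again 2 of 6, against 42.2% of all genes (22.4% higher and 19.7% lower). Both have transcripts of at least 5000 bases, a class in which 46.4% of genes were called lower in FeO and 17.8% in Spns1 KO. Between the models, with Spns1 KO set against FeO, only Slc39a5 was called among the 6, against 14.9% of all genes (6.76% higher and 8.10% lower in Spns1 KO). Neither Mt1 nor Mt2 was called in any of the 3 comparisons. The first 2 comparisons share their WT libraries.

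**Figure D1:**
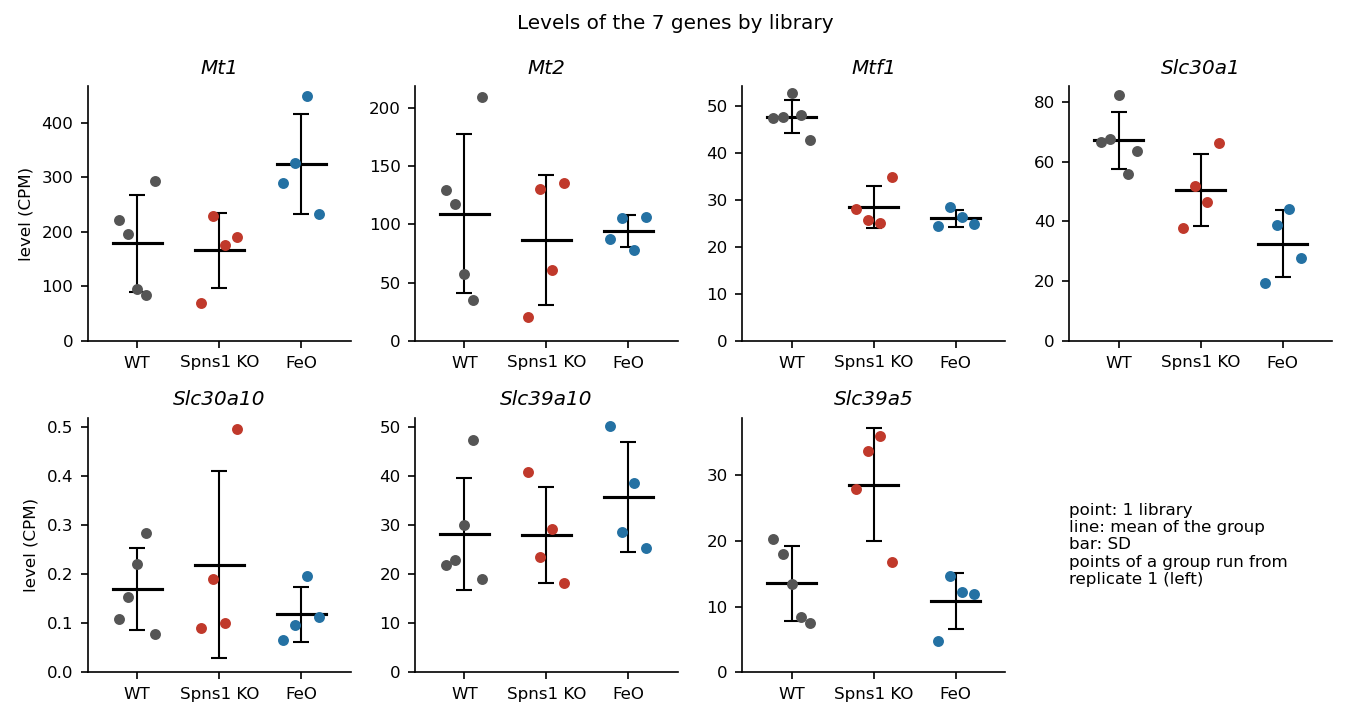
Levels of the 7 genes in CPM (vertical axes, from 0) in each of the 13 libraries, with the mean and SD of each group. Mtf1 in all 8 Spns1 KO and FeO libraries lies at 35 CPM or less, under the lowest WT library at 42.9, while Mt1 and Mt2 spread widely within WT.

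Per kilobase of transcript, the metallothioneins stood far above the other members. In WT, Mt1 had 326 ± 161 CPM per kb (SD, n = 5) and Mt2 214 ± 133, and their ranges overlapped. Within each of the 5 WT libraries Mt1 was above Mt2, such as 405 beside 253 CPM per kb in WT 1 and 155 beside 69.3 in WT 4. Slc30a1 followed at 12.8 ± 1.83 CPM per kb. Slc39a5 at 6.72 ± 2.82, Mtf1 at 6.27 ± 0.463 and Slc39a10 at 5.15 ± 2.08 could not be ordered beyond their spread. Slc30a10 was lowest at 0.0289 ± 0.0143. In Spns1 KO, Slc39a5 (14.1 ± 4.25 CPM per kb, n = 4) had a higher mean than Slc30a1 (9.64 ± 2.29), with overlapping spreads. In FeO, Slc39a10 (6.5 ± 2.03, n = 4), Slc30a1 (6.21 ± 2.14) and Slc39a5 (5.4 ± 2.12) had higher means than Mtf1 (3.42 ± 0.242). The ranges of Slc39a5 and Mtf1 overlapped, since Slc39a5 was at 2.35 CPM per kb in FeO 1 and Mtf1 at 3.2.

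Mt1 (chromosome 8, 94179082 to 94180327 of GRCm38) encodes metallothionein-1, and its level was 222, 196, 96.1, 84.9 and 294 CPM in WT 1 to 5. It was 69.7, 229, 176 and 191 CPM in Spns1 KO 1 to 4, and 289, 326, 449 and 233 CPM in FeO 1 to 4. Every Spns1 KO library except Spns1 KO 1, which was lowest of all 13, lay within the WT range, and the log2 fold change was -0.10 (SE 0.37, edgeR adjusted p = 0.859). FeO 2 and FeO 3 lay above every WT library, whereas FeO 1 and FeO 4 lay below WT 5. The mean of FeO was 1.81-fold that of WT, a log2 fold change of 0.86 (SE 0.37) with an edgeR adjusted p of 0.0692, over all alternatives 0.0261 to 0.346, so Mt1 was not called. It was called without WT 5 (1.13, edgeR adjusted p = 0.0261) and without Spns1 KO 1 (0.86, edgeR adjusted p = 0.0428).

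All 4 FeO libraries lay above all 4 Spns1 KO libraries in Mt1. The log2 fold change of Spns1 KO against FeO was -0.96 (SE 0.40, edgeR adjusted p = 0.105, range over alternatives 0.0513 to 0.244), which did not pass the limit in any alternative. Within WT the highest library had 3.47 times the level of the lowest, within Spns1 KO 3.28 times and within FeO 1.93 times.

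Mt2 (chromosome 8, 94172664 to 94173568) encodes metallothionein-2 and ends 5513 bases before Mt1 on the same strand. Its level was 129, 117, 57, 35.4 and 209 CPM in WT 1 to 5. It was 20.5, 130, 60.5 and 135 CPM in Spns1 KO 1 to 4, and 87.3, 105, 78.2 and 106 CPM in FeO 1 to 4. All FeO libraries fell within the WT range, as did all Spns1 KO libraries but Spns1 KO 1. For Spns1 KO the log2 fold change came to -0.34 (SE 0.49, edgeR adjusted p = 0.637), and for FeO to -0.22 (SE 0.49, edgeR adjusted p = 0.733). Without WT 5 both signs turned, to 0.06 and 0.17. Transcripts of Mt1 and Mt2 have 549 and 511 bases, and the 1314 tested genes with transcripts of at most 1000 bases stood at a median of 0.58 (Spns1 KO) and 0.73 (FeO) on the log2 scale. With the dependence of change on length and GC content removed, Mt1 was at -0.67 (SE 0.34) in Spns1 KO and 0.40 (SE 0.33) in FeO, and Mt2 at -0.82 (SE 0.47) and -0.67 (SE 0.47), with edgeR adjusted p from 0.178 to 0.346 and no call.

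Mt2 counts carry an uncertainty of assignment. Of the 573 distinct 31-base stretches in Mt2 transcripts, 58.1% also occur in transcripts of other genes. Most of these, 330, lie on the opposite strand in the overlapping gene Gm45774, which was not analysed here. Whether the counting used strand is not given in the sources used here, so reads from both genes may be joined or split. Mt1 shares none of its 31-base stretches with another gene.

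Both metallothioneins ranked the WT libraries in the same order, with WT 5 highest, then WT 1, WT 2, WT 3 and WT 4. Slc39a10 had its lowest WT level in WT 5 and its highest in WT 4, the reverse of that order throughout. In Spns1 KO the order of Mt2, with Spns1 KO 4 highest, then 2, 3 and 1, was again the reverse of that of Slc39a10. Mt1 did not share it, with Spns1 KO 2 highest, then 4, 3 and 1. In FeO, Mt1 was highest in FeO 3 and Mt2 lowest in it, so their orders differed there too. Slc39a10 was there highest in FeO 1, then 3, 2 and 4, the reverse of neither, and both it and Mt1 were lowest in FeO 4. Over the 13 libraries the log2 CPM of Slc39a10 had a Pearson correlation of -0.27 with Mt1 and -0.74 with Mt2. The orders were noticed in the data, and neither they nor the correlations were tested.

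The count ratio of Mt1 to Mt2 was 1.72, 1.68, 1.68, 2.4 and 1.41 in WT 1 to 5. It was 3.4, 1.76, 2.91 and 1.42 in Spns1 KO 1 to 4 and 3.31, 3.1, 5.75 and 2.2 in FeO 1 to 4. Group medians were 1.68 for WT, 2.33 for Spns1 KO and 3.21 for FeO. FeO 4 lay within the WT range and the other 3 FeO libraries above it, and no test was run on the ratio. The ratio inherits the uncertainty of the Mt2 counts.

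**Figure D2:**
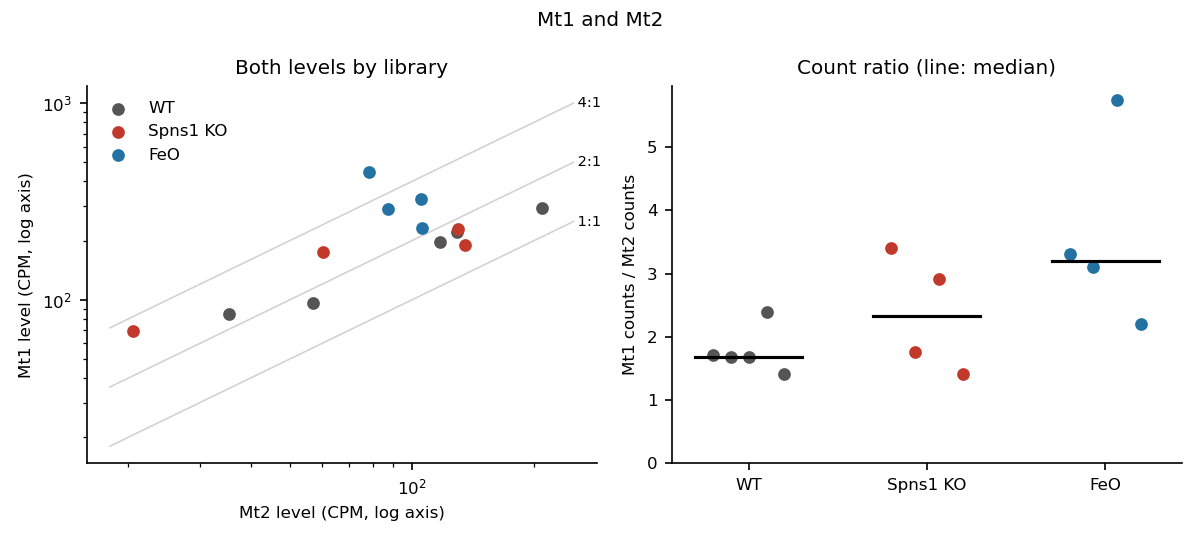
Left, Mt1 against Mt2 levels in CPM on log axes, 1 point per library, with grey lines of equal ratio. Right, the count ratio of Mt1 to Mt2 per library (vertical axis from 0) with the median of each group, 1.68 for WT, 2.33 for Spns1 KO and 3.21 for FeO, where FeO 3 stands highest at 5.75.

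The other metallothioneins gave next to no counts. Mt3, the brain form, had 0 to 13 counts per library, with 4 to 13 in Spns1 KO, 0 to 1 in WT and 0 to 3 in FeO. Mt4, the form of stratified squamous epithelium, had 0 counts in every library, which allows up to 3 counts in each. Neither was tested.

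Mtf1 (chromosome 4, 124802104 to 124849800), the gene of the zinc sensor itself, fell in both models. Its level was 47.5, 47.7, 52.9, 48.2 and 42.9 CPM in WT 1 to 5. It was 28.1, 25.8, 25.1 and 35 CPM in Spns1 KO 1 to 4, and 24.4, 28.6, 26.5 and 25 CPM in FeO 1 to 4. Each of the 8 Spns1 KO and FeO libraries was lower than each of the 5 WT libraries. Spns1 KO averaged 59.6% of WT, with a log2 fold change of -0.75 (SE 0.13, edgeR adjusted p = 0.00149), and FeO 54.6% of WT, with -0.87 (SE 0.13, edgeR adjusted p = 0.000462). The models did not differ past the limit, with Spns1 KO against FeO at 0.13 (SE 0.14, edgeR adjusted p = 0.551). Both calls held in each of the 13 fits that left out 1 library.

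Mtf1 has a long transcript of 7631 bases, and in these libraries the direction of change went with transcript length across all genes. Among the 1640 tested genes with the longest transcripts, from 6388 bases up, the median log2 fold change was -0.388 for Spns1 KO and -0.659 for FeO. With the dependence on length and GC content smoothed out of each library, Mtf1 moved to -0.41 in Spns1 KO (edgeR adjusted p = 0.0182) and -0.34 in FeO (edgeR adjusted p = 0.0239), below the limit on size, so both calls were lost. A further limit is that 7.77% of its 31-base stretches lie in the opposite-strand gene 1110065P20Rik.

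**Figure D3:**
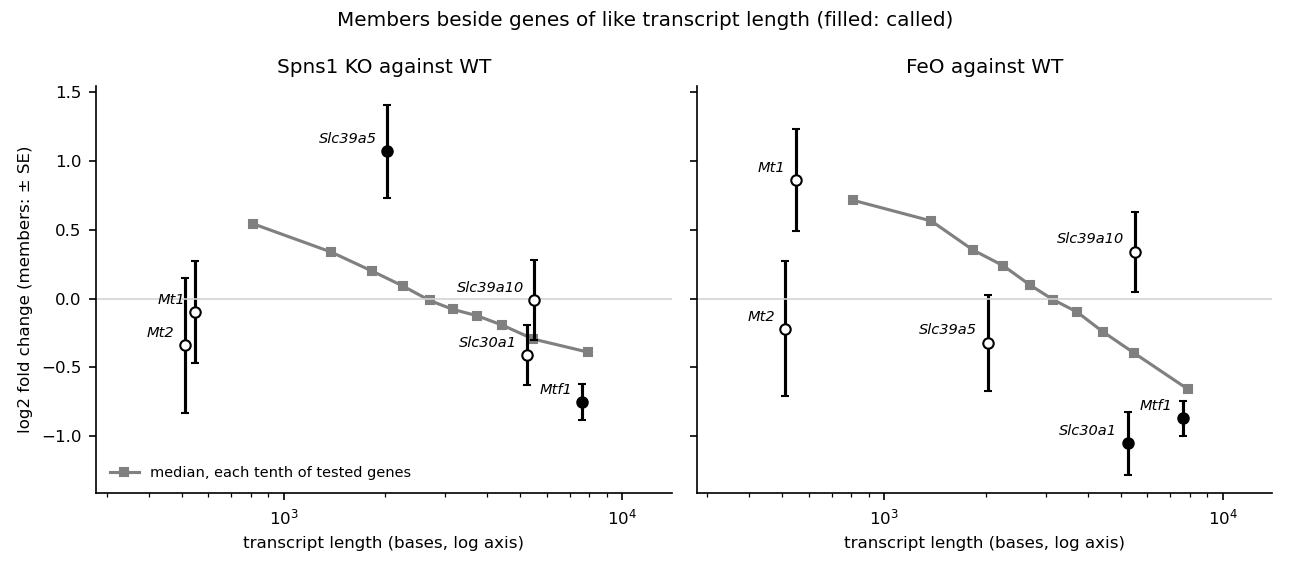
Log2 fold change (vertical axis) against transcript length in bases (log axis) for the 6 tested members, with SE bars, and the medians of all tested genes in 10 bins of rising length in grey. In FeO the grey line runs from 0.714 in the bin of shortest transcripts to -0.659 in that of the longest, with Mtf1 near its end and Slc30a1 below it.

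Slc30a1 (chromosome 1, 191906767 to 191913247) encodes ZnT1, which exports zinc across the plasma membrane, and it fell in FeO. Its level was 66.7, 67.7, 82.2, 55.8 and 63.7 CPM in WT 1 to 5. It was 37.7, 51.7, 46.5 and 66.3 CPM in Spns1 KO 1 to 4, and 19.4, 38.9, 44.3 and 27.7 CPM in FeO 1 to 4. All FeO libraries lay below all WT libraries, at 48.4% of the WT mean, with a log2 fold change of -1.05 (SE 0.23, edgeR adjusted p = 0.00221). In Spns1 KO, 3 of 4 libraries lay below all WT libraries and Spns1 KO 4 lay among them, and the log2 fold change was -0.41 (SE 0.22, edgeR adjusted p = 0.189).

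The FeO call of Slc30a1 held in every alternative run, from -1.23 without FeO 3 to -0.69 (SE 0.22, edgeR adjusted p = 0.0251) with the length and GC trend removed. Genes of like length, in the 1 of 10 length bins that holds its 5244 bases, had a median of -0.394 in FeO and -0.294 in Spns1 KO. Set directly against each other, Spns1 KO was 1.55-fold FeO, a log2 fold change of 0.63 (SE 0.23, edgeR adjusted p = 0.076), so a difference between the models was not called. It was called only without FeO 3 (0.82, edgeR adjusted p = 0.0422), among alternatives with adjusted p from 0.0422 to 0.201. Some 8.38% of its 31-base stretches lie in the opposite-strand gene 1700034H15Rik.

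Slc30a10 (chromosome 1, 185454848 to 185468762) encodes ZnT10, a manganese exporter of the cell surface, and was barely detected. It had 2 to 8 counts per library in WT, 3 to 21 in Spns1 KO and 2 to 5 in FeO. The highest library was Spns1 KO 4 at 0.495 CPM, and group means were 0.169 (WT), 0.219 (Spns1 KO) and 0.118 CPM (FeO). A difference between groups was not detectable at this depth.

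Slc39a5 (chromosome 10, 128395931 to 128401229, minus strand) encodes ZIP5, a zinc importer of the basolateral membrane in polarized epithelia, and it rose in Spns1 KO. Its level was 20.4, 18.1, 13.4, 8.44 and 7.57 CPM in WT 1 to 5. It was 27.9, 33.8, 36 and 16.8 CPM in Spns1 KO 1 to 4, and 4.75, 14.7, 12.3 and 12 CPM in FeO 1 to 4. Spns1 KO 1 to 3 lay above all WT libraries, whereas Spns1 KO 4 lay inside the WT range. The Spns1 KO mean was 2.1-fold that of WT, a log2 fold change of 1.07 (SE 0.34, edgeR adjusted p = 0.0335). In FeO the log2 fold change was -0.32 (SE 0.35, edgeR adjusted p = 0.467).

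Spns1 KO stood above FeO in Slc39a5 in all 4 libraries, by 2.62-fold, a log2 fold change of 1.39 (SE 0.37, edgeR adjusted p = 0.0219). Removing the length and GC trend left it called (1.35, edgeR adjusted p = 0.0204). It was lost without Spns1 KO 2 (1.30, edgeR adjusted p = 0.0548) and without FeO 1 (1.14, edgeR adjusted p = 0.0547). The proximal tubule markers, given above, were also higher in all Spns1 KO libraries than in any WT or FeO library, and their part in the Slc39a5 result was not tested.

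The call of Slc39a5 against WT depended on single libraries and on the trend. With the trend removed it was 0.80 (SE 0.33, edgeR adjusted p = 0.104), and genes of like transcript length (2025 bases) had a median of 0.200. It was lost without Spns1 KO 1 (1.08, edgeR adjusted p = 0.0708), Spns1 KO 2 (0.98, 0.0928) or Spns1 KO 3 (0.94, 0.105), and without WT 3 (1.08, 0.0656), WT 4 (0.96, 0.0678) or WT 5 (0.94, 0.0643). Without Spns1 KO 4 or WT 1 it was 1.26 and still called.

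Slc39a10 (chromosome 1, 46807544 to 46892852, minus strand) encodes ZIP10, a zinc importer of the plasma membrane. Its level was 21.9, 22.9, 30.1, 47.4 and 19.1 CPM in WT 1 to 5. It was 40.9, 23.6, 29.3 and 18.2 CPM in Spns1 KO 1 to 4, and 50.3, 28.7, 38.6 and 25.4 CPM in FeO 1 to 4. Levels in the groups overlapped, and the log2 fold change of Spns1 KO was -0.01 (SE 0.29, edgeR adjusted p = 0.979), that of FeO 0.34 (SE 0.29, edgeR adjusted p = 0.349). With the length and GC trend removed, FeO rose to 0.76 (SE 0.25, edgeR adjusted p = 0.0308) and was called, the only alternative in which it was.

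**Figure D4:**
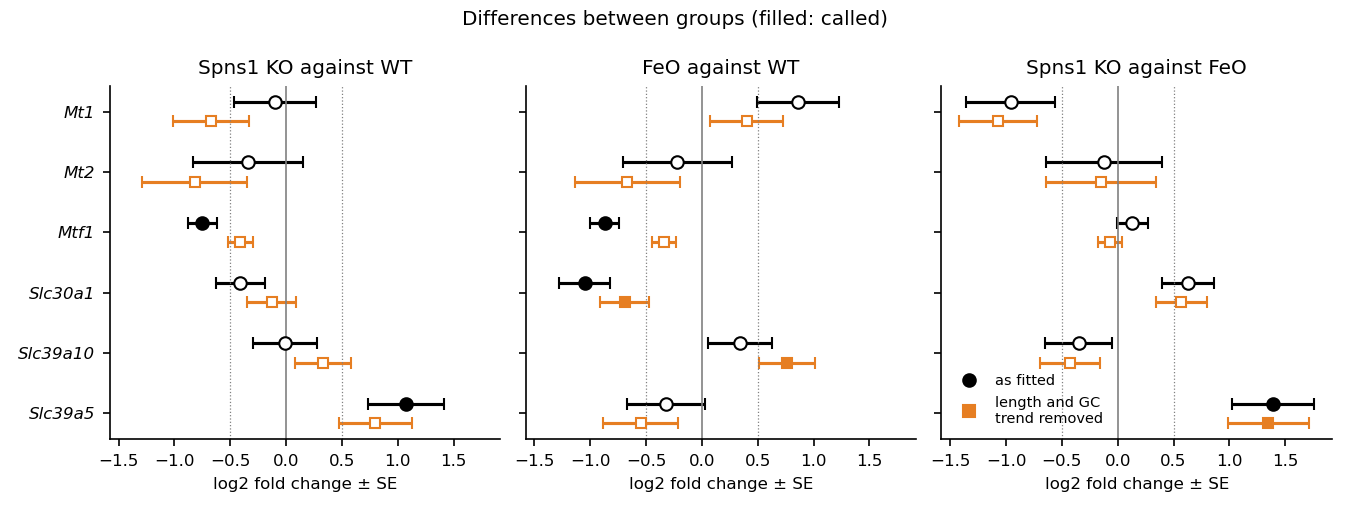
Log2 fold change with SE (horizontal axes) of the 6 tested members in the 3 comparisons, as fitted (circles) and with the length and GC trend removed (squares), with called values filled and dotted lines at 0.5 in each direction. Slc30a1 in FeO stays called in both, at -1.05 and -0.69, as does Slc39a5 in Spns1 KO against FeO, at 1.39 and 1.35.

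The genes whose pattern over the 13 libraries was most like each member were named by the Pearson correlation of log2 CPM, over the 12202 genes that averaged 100 counts or more per library. For Mtf1 they included Fbxo38 (r = 0.985) and Etv6 (0.981). Slc30a1 was nearest to Lbr (0.966), Rasa2 (0.963) and Impact (0.956). Slc39a10 was nearest to Cog5 (0.979), Pcmtd2 (0.966) and Kdm1b (0.966), and Slc39a5 to Pgap6 (0.974), Habp2 (0.949) and Lrp3 (0.941). The metallothioneins had weaker likenesses, Mt1 to Eral1 (0.917), Mad2l2 (0.894) and Cox19 (0.886), and Mt2 to Gnb1l (0.878), Fam118a (0.838) and Rab40c (0.818). Differences between groups and between libraries both enter these values, which are a description.

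Among the SLC30 family, whose members carry zinc or manganese out of the cytosol, 9 of 10 genes were tested. In Spns1 KO none rose and Slc30a4 fell, where 14.0% of all tested genes were called higher and 7.55% lower, with a family median log2 fold change of -0.17 beside -0.05 for all of them. In FeO 1 rose and 4 fell, beside 22.4% and 19.7% of all tested genes and 46.4% called lower among transcripts of at least 5000 bases, with a median of -0.51 beside -0.01. Beside Slc30a1, those that fell were Slc30a7 (-0.52, SE 0.14, edgeR adjusted p = 0.00824), which loads the Golgi with zinc, Slc30a4 (-0.51, SE 0.18) of endosomal and lysosomal vesicles, and Slc30a3 (-1.85, SE 0.63), the synaptic vesicle form, which stood at 0.51 CPM in WT. Slc30a6, a partner of Slc30a5 in the secretory pathway, rose in FeO (0.51, SE 0.16). With the length and GC trend removed, none was called in Spns1 KO and only Slc30a1 and Slc30a3 in FeO. That fit called 1885 of the 16468 tested genes higher and 650 lower in Spns1 KO, and 3149 and 2284 in FeO.

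Of the 14 genes of the SLC39 family, which carry zinc and other metals into the cytosol, 12 were tested. In Spns1 KO 3 rose and 2 fell (median 0.23 beside -0.05 for all tested genes, of which 14.0% rose and 7.55% fell). In FeO 5 rose and 1 fell (median 0.44 beside -0.01, with 22.4% of all genes rising and 19.7% falling). Slc39a1, a widely expressed plasma membrane importer, rose in FeO from 50.6 ± 4.04 to 102 ± 20.5 CPM (log2 fold change 1.02, SE 0.20, edgeR adjusted p = 0.00145). Slc39a11 rose in both models (0.73, SE 0.18, and 0.88, SE 0.18). Slc39a7, which releases zinc from the endoplasmic reticulum, rose in FeO (0.64, SE 0.15), as did Slc39a13 (0.70, SE 0.15), a transporter of the secretory pathway. With the trend removed, 2 rose and 1 fell in Spns1 KO, and 6 rose and 1 fell in FeO. Of all 16468 tested genes, 1885 rose and 650 fell in Spns1 KO under that fit, and 3149 rose and 2284 fell in FeO. Slc39a7 was not among the 6 family members that rose in FeO, since its change there (0.46, SE 0.12, edgeR adjusted p = 0.00996) fell below the limit on size.

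3 more importers are named because of their values. Slc39a2, a zinc importer, was at 25.3, 26.3, 24.6, 45.4 and 2.32 CPM in WT 1 to 5. It was at 2.15, 1.79, 2.3 and 2.31 CPM in Spns1 KO 1 to 4 and at 24.2, 25.9, 2.68 and 36.4 CPM in FeO 1 to 4. WT 5 and FeO 3 thus sat just above the highest Spns1 KO library, while every other WT and FeO library was at 24.2 CPM or more. The log2 fold change was -3.53 in Spns1 KO (SE 0.71, edgeR adjusted p = 0.00317) and -0.15 in FeO (SE 0.61, edgeR adjusted p = 0.851), and Spns1 KO against FeO gave -3.38 (SE 0.72, edgeR adjusted p = 0.0089). The Spns1 KO call held in all 22 alternative fits, from -3.81 to -3.08. Without WT 5 the value was -3.81 (SE 0.54, edgeR adjusted p = 0.00134), and without FeO 3 Spns1 KO against FeO gave -3.75 (SE 0.60, edgeR adjusted p = 0.00414). The count of Spns1, given above, does not check the labels, and whether these 2 libraries match theirs was not tested.

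Slc39a8, which carries zinc, manganese and iron, was at 15.8 to 29.2 CPM in WT and 47.1 to 64.9 in Spns1 KO, without overlap. It rose in Spns1 KO (1.13, SE 0.23, edgeR adjusted p = 0.00356), called in all 22 alternatives, whereas FeO, at 24.7 to 53.7 CPM, gave 0.53 (SE 0.23, edgeR adjusted p = 0.0702). In FeO it was called in 4 of the 22 alternatives, among them that with the trend removed (0.65, SE 0.23, edgeR adjusted p = 0.0347). The models did not differ past the limit (0.59, SE 0.24, edgeR adjusted p = 0.106). Slc39a14, which also carries iron that is not bound to transferrin, was at 161 to 241 CPM in WT, 93.1 to 189 in Spns1 KO and 75.3 to 134 in FeO. It fell in Spns1 KO (-0.65, SE 0.22, edgeR adjusted p = 0.0471), a call kept in 11 of 22 alternatives, and in FeO (-0.95, SE 0.23, edgeR adjusted p = 0.004), a call kept in all 22.

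**Figure D5:**
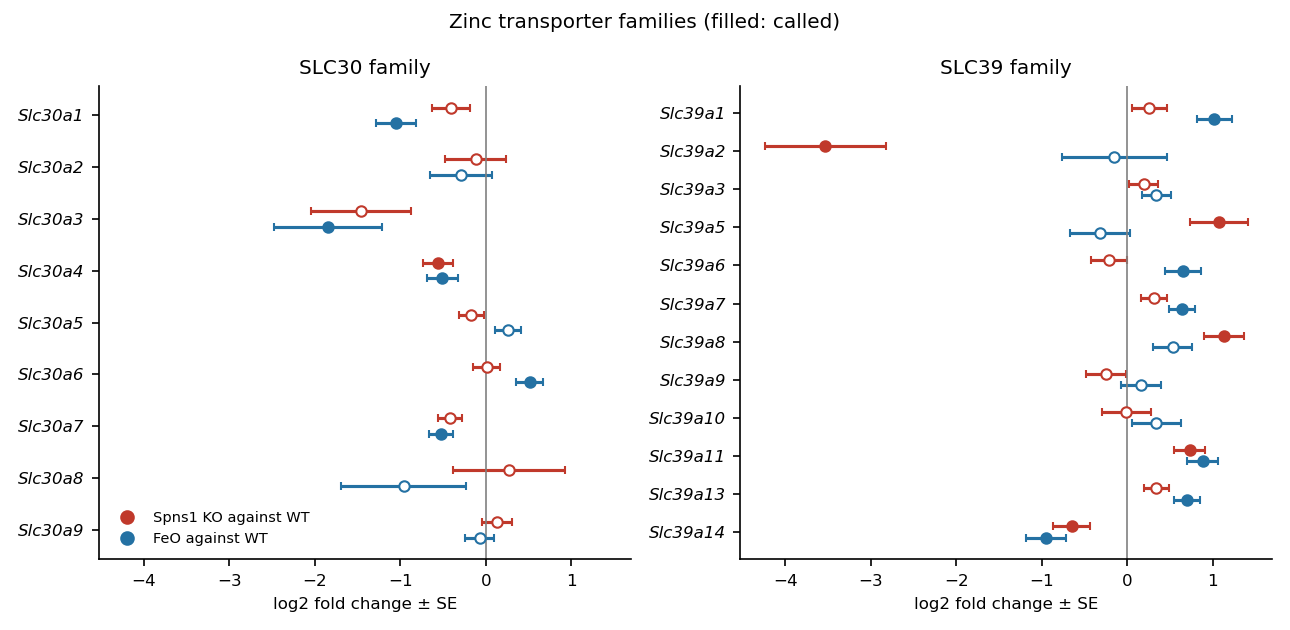
Log2 fold change with SE (horizontal axes) of the tested genes of the SLC30 and SLC39 families in Spns1 KO and FeO against WT, with called values filled. Slc39a2 in Spns1 KO stands apart at -3.53, and Slc30a1 and Slc39a14 in FeO lie at -1.05 and -0.95.

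A list of 6 further genes linked to MTF-1 held 1 call in Spns1 KO and 3 in FeO, all higher (medians 0.21 and 0.53), where 14.0% and 22.4% of all tested genes were called higher. Selenow, a small selenoprotein, rose in both (1.51, SE 0.21, and 1.54, SE 0.21). Its transcript has 736 bases, and among transcripts of at most 1000 bases 40.6% and 48.6% were called higher. With the length and GC trend removed it was at 0.91 and 0.99, still called in both. Csrp1, a LIM domain protein, rose in FeO (1.39, SE 0.32), with 176 ± 118 CPM in FeO against 67.2 ± 14.3 in WT. Slc40a1, the iron exporter ferroportin, rose in FeO (0.71, SE 0.28, edgeR adjusted p = 0.048), and in Spns1 KO it gave 0.61 (SE 0.28, edgeR adjusted p = 0.118). Gclc, the catalytic subunit of the enzyme that starts glutathione synthesis, was not called (-0.25, SE 0.19, and -0.10, SE 0.19). The same numbers were called with the trend removed, a fit that called 1885 of all 16468 tested genes higher in Spns1 KO and 3149 in FeO.

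Metallothioneins also bind copper, and of 13 copper genes 6 rose and none fell in Spns1 KO (median 0.54), while 5 rose and 1 fell in FeO (median 0.42). The shares of all tested genes called higher were 14.0% and 22.4%, and among transcripts of at most 1000 bases 40.6% and 48.6%. Atox1, the chaperone that hands copper to the copper pumps, rose by 1.90 (SE 0.19, edgeR adjusted p = 8.75e-05) in Spns1 KO and by 1.01 (SE 0.19, edgeR adjusted p = 0.000946) in FeO. Sod1, the copper and zinc superoxide dismutase, rose by 1.34 (SE 0.23) and 1.29 (SE 0.23), and Commd1 by 1.13 (SE 0.22) and 1.42 (SE 0.22). Ccs, which loads Sod1 with copper, rose in Spns1 KO (1.00, SE 0.17), with 0.29 (SE 0.17) in FeO, and Spns1 KO against FeO gave 0.71 (SE 0.18, edgeR adjusted p = 0.019). Atp7a, a copper pump, was the gene that fell in FeO (-1.33, SE 0.26) and is named for that. Atox1, Sod1 and Ccs have short transcripts of 541, 641 and 1067 bases, and with the trend removed they were at 1.23, 0.79 and 0.54 in Spns1 KO, all still called. In FeO, Sod1 was still called (0.72) and Atox1 was not (0.45).

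Of 5 genes of manganese handling outside both families, 3 rose and none fell in Spns1 KO (median 0.79), and 1 rose in FeO (median 0.14), against 14.0% and 22.4% of all tested genes called higher. Slc11a2, the divalent metal transporter DMT1, rose in Spns1 KO (0.79, SE 0.16, edgeR adjusted p = 0.00343) and gave -0.25 (SE 0.16) in FeO. Set against FeO it was higher in Spns1 KO by 1.04 (SE 0.17, edgeR adjusted p = 0.00324). Atp2c1, a Golgi calcium and manganese pump (1.11, SE 0.33), and Sod2, the mitochondrial manganese superoxide dismutase (0.80, SE 0.24), also rose in Spns1 KO. Tmem165, a Golgi manganese transporter, rose in FeO (0.54, SE 0.15). With the trend removed the 3 genes of Spns1 KO were called again, while in FeO Sod2 (0.95) was called in place of Tmem165 (0.25). That fit called 1885 of the 16468 tested genes higher in Spns1 KO and 3149 in FeO.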

How the data were processed

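The authors deposited estimated counts per gene symbol for the 13 libraries (poly-A selected, paired-end), without normalization, as whole numbers. Per the labels' processing notes, bcl2fastq 2.19, kallisto 0.44.0, DESeq2 and GRCm38 were used, but the methods name STAR and HTSeq, so the sources differ. The 7 members and all gene lists were chosen with earlier results of these data known.

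Counts were scaled with TMM factors, filtered with filterByExpr and tested in 1 fit of all 13 libraries with edgeR 4.0.16 (R 4.3.3), quasi-likelihood, with Benjamini-Hochberg adjustment over 16468 genes. Total counts of 23068023 to 71296474 set the precision of counting, and the smallest count of a tested member in a library was 145. Alternatives were other factors, no filter, DESeq2 1.42.0, limma-voom 3.58.1, 2 groups alone, a replicate block, a length and GC trend removed (mgcv 1.9.3), no limit on size and each library left out. Lengths (APPRIS principal transcript, else longest) came from GENCODE vM21 for 99.2% of symbols. From each list, called genes outside the 7 were named up to the 4 with the smallest adjusted p, and 3 likest genes per member, of which 1 is not reported here. The fit was tested on counts simulated with the spread estimated from these data and without a length or GC trend. That test therefore does not cover such a trend.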

Additional observations from a re-analysis of the deposited data

How the results depend on the processing

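Of 396 alternative values of the 18 member differences, 356 kept their direction and their side of the limits, 12 lost a call, 7 gained one and 21 changed sign. No called value changed sign. In Spns1 KO against WT, Mt1 was 0.16 with the replicate block and -0.30 to 0.18 with 1 library left out, and Mt2 was -0.64 to 0.06 with 1 left out. Slc39a10 there was 0.05 without a filter, 0.01 with limma-voom, 0.00 with the 2 groups alone, 0.33 with the trend removed and -0.25 to 0.27 with 1 library left out. Mt2 in FeO was 0.03 with limma-voom, 0.16 with the replicate block and -0.43 to 0.17 with 1 left out. In Spns1 KO against FeO, Mt2 was -0.42 to 0.20 with 1 left out, and Mtf1 -0.07 with the trend removed. Mt1 in FeO was called without a filter (0.92, edgeR adjusted p = 0.0498), with DESeq2 (0.87, adjusted p = 0.0359) and with the block (1.12, edgeR adjusted p = 0.0407). The causes were not tested.

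The members called in Spns1 KO numbered 2, against 1 with the replicate block (Slc39a5 lost, at 0.90), 0 with the trend removed and 1 to 2 with 1 library left out. Those called in Spns1 KO against FeO numbered 0 to 2. Genes called in Spns1 KO numbered 3550, or 2035 (without Spns1 KO 3) to 5680 (without Spns1 KO 4), and in Spns1 KO against FeO 2447, or 1040 with the 2 groups alone and 1181 (without FeO 1) to 3087 (without FeO 2). With the trend removed, an alternative chosen after seeing the data for the lists, the SLC30 family held 0 calls in place of 1 in Spns1 KO and 2 in place of 5 in FeO, and the SLC39 family 3 in place of 5 in Spns1 KO. Library totals alone moved the median of all genes in Spns1 KO from -0.05 to -0.18, and the share of calls that were higher from 65.0% to 45.5%. That share was 75.8% without a filter and 74.4% with the trend removed, and in Spns1 KO against FeO it went from 45.5% to 33.9% with totals alone. Over all groups, 4 of 12 same-number pairs were correlated above 0.1, beside 11 of 44 pairs of other numbers. Between Spns1 KO and FeO, same-number pairs gave 0.134, -0.0362, 0.256 and 0.231, and pairs of other numbers -0.317 to 0.367. Same-number pairs with WT gave -0.296 to 0.194. Only 3 libraries were closest to their own number. The labels tie these numbers to no litter or day, so shared litters or days were not tested.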
